A study of Sus scrofa with 6 samples.

Results

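The genes described here encode proteins that sit at the sarcomeric Z-disc, or on the titin filament anchored in it, and take part in the response of muscle to stretch. Of 10 genes listed by symbol (ANKRD1, ANKRD2, ANKRD23, CSRP3, TCAP, XIRP1, XIRP2, TTN, ACTN2 and ACTN3), 9 had a row in the deposited table of 25322 genes. Each of the 9 had a single row, so the rule that keeps the row with the highest summed counts chose nothing. No row carried the symbol ACTN3. The genes were thus chosen by name, and none was selected on its counts, though the list was drawn up with earlier results for the breed comparison known. RNA sequencing was done on longissimus dorsi, the long back muscle, in 6 pig libraries, 3 of the Wei breed and 3 of the Yorkshire breed, and the labels state that both were kept in a like manner. Slaughter weight was 90 kg for Wei pigs and is not stated for Yorkshire pigs, and the labels give neither age, sex nor any drug treatment for either breed. Titles of the Wei libraries start with YH and those of the Yorkshire libraries with LWH, codes that the labels do not explain. Whether each library is 1 animal is not stated, so p-values cover the spread among these libraries, which may be technical.

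The Z-disc is the border of the sarcomere, where actin filaments of opposite polarity are crosslinked by alpha-actinin and where the giant protein titin is anchored. Titin acts as a spring, and several proteins bound to it move between the sarcomere and the nucleus when muscle is stretched or injured. The muscle ankyrin repeat proteins, encoded by ANKRD1, ANKRD2 and ANKRD23, bind the N2A spring region of titin and also act in the nucleus as regulators of transcription. ANKRD1 is the form best known from heart muscle and is also a target of the YAP and TEAD factors, whereas ANKRD2 is known from slow skeletal fibres.

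Total gene counts ranged from 15285197 to 27096747 per library, and the lowest count of any of the 9 genes in any library was 648. Counts scaled to library size (CPM) are given after TMM scaling and are used to compare libraries. FPKM values, which the authors divided by gene length, are used to compare genes. Fibre genes were abundant in each library, as the tissue label implies: 7 of 8 listed genes common to all fibres were tested and summed to between 83815 and 156507 CPM. The lowest of these sums was that of Wei replicate 1, and the lowest in Yorkshire was 138688. Of 7 macrophage genes tested, Yorkshire replicate 3 held a summed level of 112 CPM, where the other 5 libraries ranged from 26.5 to 37.9, and 0 of 7 were called by edgeR, with 1 at an unadjusted p under 0.05, where 23.3% of all genes tested stood, and 1 by DESeq2.

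The breeds differed in opposite directions in 2 muscle ankyrin repeat genes. ANKRD1 was lower in Wei by 3.06 on the log2 scale, an 8.32-fold difference, and ANKRD2 was 3.04-fold higher in Wei. Among the 9 genes, 1 was called higher and 1 lower in Wei by edgeR's quasi-likelihood test at a Benjamini-Hochberg adjusted p of 0.05 over all 13209 genes tested, where 5.08% of genes were called, 2.73% higher and 2.35% lower. DESeq2 and limma voom each called the same 2 of the 9 genes, against 9.77% and 4.88% of all genes tested. The remaining 7 genes did not pass. The values of the breeds did not overlap for 4 of the 9 genes, against 29.6% of all genes tested. The median log2 fold change of the 9 genes was 0.28, beside -0.023 over all genes. Since that comparison was known when the genes were listed, these counts describe them and support nothing further.

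**Figure D1:**
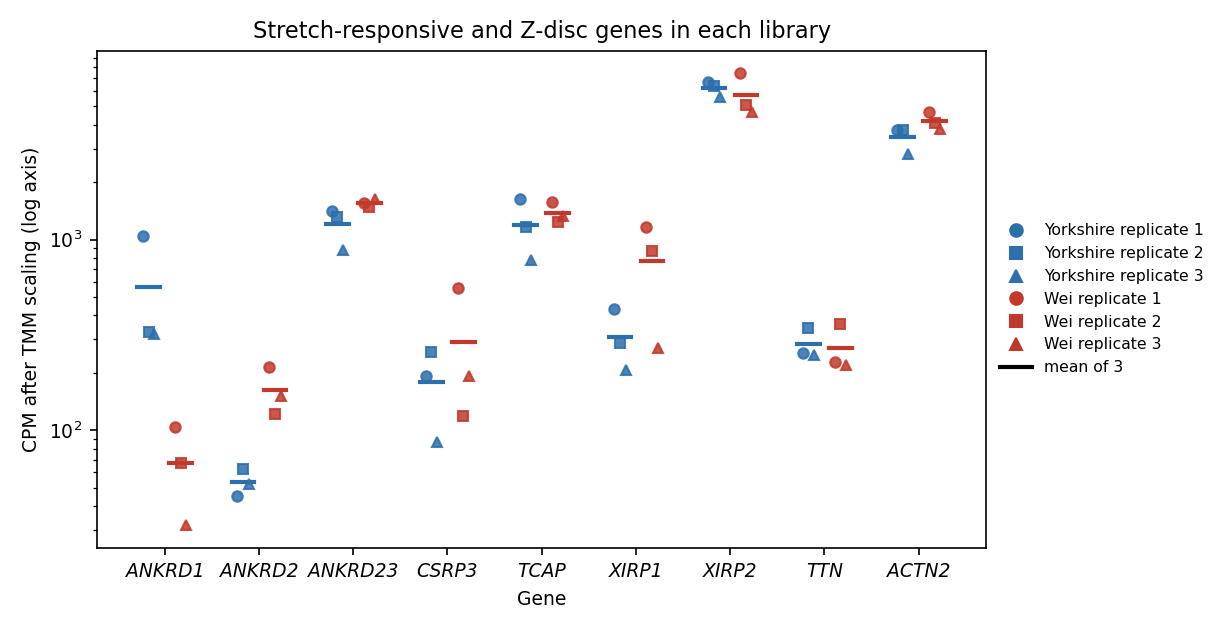
CPM after TMM scaling of the 9 genes in each of the 6 libraries, on a log axis. Yorkshire libraries are blue and Wei libraries red, the marker shape gives the replicate number, and the horizontal bar is the mean of 3. ANKRD1 lies between 321 and 1037 CPM in Yorkshire and between 31.7 and 104 in Wei, whereas ANKRD2 lies between 45.1 and 62.8 in Yorkshire and between 121 and 215 in Wei.

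ANKRD1 (ENSSSCG00000010461, chromosome 14, 111715049 to 111724029 in Sscrofa10.2), also called CARP, stood at 1037, 329 and 321 CPM in Yorkshire replicates 1 to 3. In Wei replicates 1 to 3 it stood at 104, 67.5 and 31.7 CPM. The groups did not overlap, and the lowest Yorkshire library was still above the highest Wei library. Within each breed the level was uneven, with 562 ± 411 CPM (SD, n = 3) in Yorkshire and 67.6 ± 36.0 in Wei, and Yorkshire replicate 1 stood above the other Yorkshire libraries. The log2 fold change was -3.06 ± 0.57 (SE; edgeR, Benjamini-Hochberg adjusted p = 0.0292). Without Yorkshire replicate 1 it was -2.27 and the adjusted p by the same edgeR test was 0.0405. ANKRD1 missed the threshold without Yorkshire replicate 2 (edgeR adjusted p = 0.0675), Wei replicate 2 (0.0670) or Wei replicate 3 (0.0701), at log2 fold changes of -3.33, -3.05 and -2.71.

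ANKRD2 (ENSSSCG00000010522, chromosome 14, 118448761 to 118462197), also called Arpp, lies on the same chromosome and was higher in Wei. Yorkshire replicates 1 to 3 had 45.1, 62.8 and 52.5 CPM, and Wei replicates 1 to 3 had 215, 121 and 152 CPM. Each Wei library was above each Yorkshire library, with means of 163 ± 48.0 and 53.5 ± 8.91 CPM (SD, n = 3). The log2 fold change was 1.60 ± 0.23 (edgeR adjusted p = 0.0120). It passed in 5 of 6 fits that left out 1 library and missed in the one without Yorkshire replicate 2, where edgeR gave an adjusted p of 0.0511 and a log2 fold change of 1.74.

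ANKRD23 (ENSSSCG00000008200, chromosome 3, 59227039 to 59231351), also called DARP, was the most abundant of the 3 ankyrin repeat genes. Its levels were 1417, 1312 and 883 CPM in Yorkshire replicates 1 to 3, and Wei replicates 1 to 3 had 1551, 1478 and 1639. The values did not overlap, since the highest Yorkshire library was below the lowest Wei library, but the gap was small beside the spread in Yorkshire. Its log2 fold change of 0.37 ± 0.19 did not pass (edgeR adjusted p = 0.286).

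Per length, the family was dominated by ANKRD23 in both breeds, and the minor forms changed places. The summed FPKM of the 3 genes was 1688 ± 396 (SD, n = 3) in Yorkshire and 1884 ± 246 in Wei, with overlapping libraries. ANKRD1 made up 28.0%, 11.6% and 15.9% of this sum across Yorkshire replicates 1 to 3, but 3.14%, 2.27% and 0.965% across Wei replicates 1 to 3. ANKRD2 made up between 2.05% and 4.37% in Yorkshire and between 6.85% and 11.0% in Wei. In each Yorkshire library ANKRD1 exceeded ANKRD2, with FPKM ratios of 13.6, 3.11 and 3.63. In each Wei library ANKRD1 was below ANKRD2, with ratios of 0.286, 0.331 and 0.124.

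**Figure D2:**
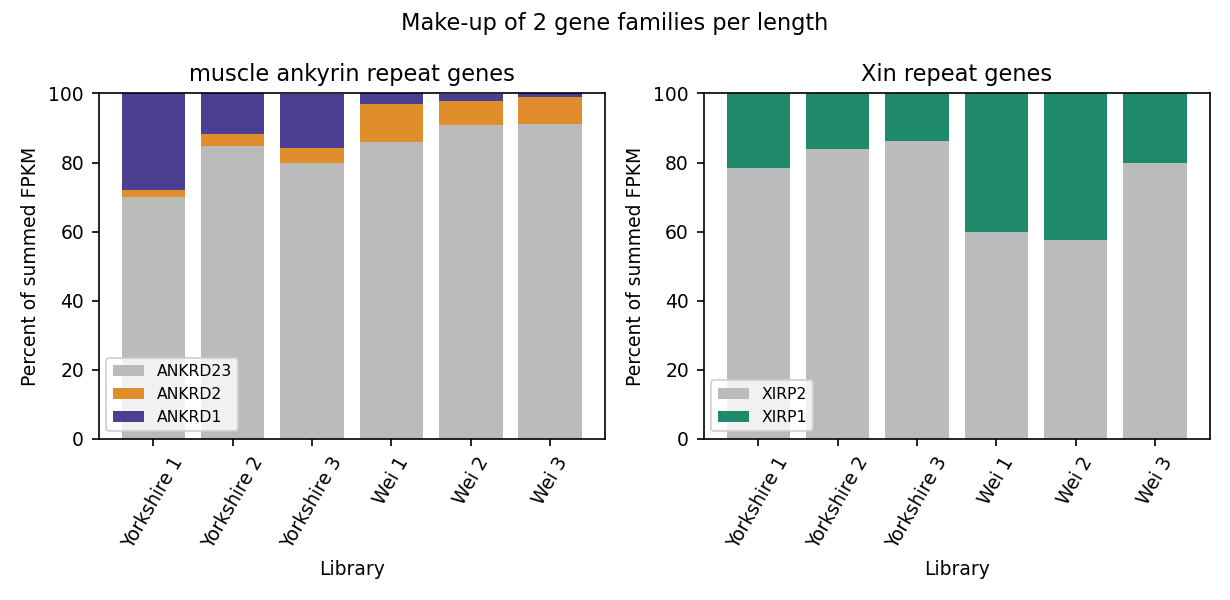
Share of each gene in the summed FPKM of its family, in percent, for the 3 muscle ankyrin repeat genes (left) and the 2 Xin repeat genes (right), with 1 bar per library. ANKRD1 takes between 11.6% and 28.0% in Yorkshire and at most 3.14% in Wei, and XIRP1 takes 40.2% and 42.5% in Wei replicates 1 and 2 and 20.0% in Wei replicate 3.

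A ratio within a library does not depend on how libraries are scaled, and 6 pairs of like role were compared with an exact two-sided permutation test, which with 3 against 3 libraries cannot give a p below 0.10. The log2 count ratio of ANKRD1 to ANKRD2 differed by -4.56 ± 0.81 (SE) in Wei minus Yorkshire, without overlap between the breeds. The differences were -3.38 ± 0.70 for ANKRD1 to ANKRD23 and 1.18 ± 0.35 for ANKRD2 to ANKRD23, also without overlap. Each of these 3 pairs had the smallest exact permutation p that the design allows, 0.1, and 0.2 after Benjamini-Hochberg adjustment over the 6 pairs. No pair could therefore pass a threshold of 0.05.

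CSRP3 (ENSSSCG00000013354, chromosome 2, 43258339 to 43279704) encodes muscle LIM protein, and TCAP (ENSSSCG00000017500, chromosome 12, 23107252 to 23108618) encodes telethonin, which caps titin at its Z-disc end and binds muscle LIM protein. CSRP3 stood at 193, 256 and 86.2 CPM in Yorkshire replicates 1 to 3 and at 559, 118 and 192 in Wei replicates 1 to 3. The breeds overlapped, and the Wei mean rested on Wei replicate 1. Its log2 fold change was 0.70 ± 0.57 (edgeR adjusted p = 0.491), and -0.19 without Wei replicate 1.

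TCAP stood at 1634, 1167 and 782 CPM in Yorkshire replicates 1 to 3 and at 1581, 1242 and 1326 in Wei replicates 1 to 3. The Yorkshire libraries spanned the Wei libraries, and the log2 fold change was 0.21 ± 0.25 (edgeR adjusted p = 0.656). The log2 count ratio of CSRP3 to TCAP differed by 0.26 ± 0.64 (exact permutation p = 0.7, and 0.7 adjusted over the 6 pairs), and by -0.27 without Wei replicate 1.

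The Xin proteins bind and bundle actin filaments, and XIRP1 is known to appear at sites of muscle damage and remodelling. XIRP1 (ENSSSCG00000011265, chromosome 13, 26127754 to 26137301) stood at 432, 286 and 208 CPM in Yorkshire replicates 1 to 3. In Wei replicates 1 to 3 it stood at 1162, 868 and 271 CPM, so Wei replicates 1 and 2 were above all Yorkshire libraries and Wei replicate 3 lay among them. The log2 fold change of 1.31 ± 0.48, 2.48-fold, did not pass over all 6 libraries (edgeR adjusted p = 0.149). Without Wei replicate 3 it was 1.72 with an edgeR adjusted p of 0.0445.

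XIRP2 (ENSSSCG00000015917, chromosome 15, 82491704 to 82597617) had the highest CPM of the 9 genes, on a gene model of 27035 bases. It stood at 6736, 6377 and 5622 CPM in Yorkshire replicates 1 to 3 and at 7445, 5056 and 4660 in Wei replicates 1 to 3. The Wei libraries lay on both sides of the Yorkshire libraries, with a log2 fold change of -0.13 ± 0.21 (edgeR adjusted p = 0.761). XIRP1 made up 17.2 ± 4.05% of the summed FPKM of the pair in Yorkshire and 34.2 ± 12.4% in Wei (SD, n = 3), and the log2 count ratio of XIRP1 to XIRP2 differed by 1.29 ± 0.55 (exact permutation p = 0.2, and 0.3 adjusted over the 6 pairs).

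Titin itself was covered only in part. The row named TTN (ENSSSCG00000024087) lies on the unplaced scaffold GL893554.2, from 81972 to 112317, and holds 5976 bases, whereas titin is the largest known protein. RefSeq places TTN between PLEKHA3 and CCDC141 in the later assembly Sscrofa11.1, and the deposited table had 0 rows between these genes. The row stood at 254, 345 and 249 CPM in Yorkshire replicates 1 to 3 and at 229, 361 and 219 in Wei replicates 1 to 3. The breeds overlapped throughout, and the log2 fold change was -0.069 ± 0.224 (edgeR adjusted p = 0.884). These values describe this stretch of titin and not the whole transcript, and which titin exons it holds was not examined.

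ACTN2 (ENSSSCG00000010144, chromosome 14, 58645069 to 58717200) encodes the alpha-actinin of all fibre types. It stood at 3752, 3768 and 2805 CPM in Yorkshire replicates 1 to 3 and at 4671, 4070 and 3802 in Wei replicates 1 to 3. Each Wei library was above each Yorkshire library, by a narrow margin between 3768 and 3802 CPM. Its log2 fold change of 0.28 ± 0.18 did not pass (edgeR adjusted p = 0.383).

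ACTN3, the alpha-actinin restricted to fast fibres, had no row of its own name, but 2 rows without a symbol were annotated in the table as actinin alpha. They lie on chromosome 2, at 4826321 to 4839557 (ENSSSCG00000025136) and 4936399 to 4949636 (ENSSSCG00000030087), hold 3105 bases each, and each neighbours a row annotated as cathepsin F. Beyond cathepsin F lie CCDC87 and CCS, and DPP3 lies on the other side of the second row. RefSeq places ACTN3 next to CTSF, the cathepsin F gene, in Sscrofa11.1, also with CCDC87 and CCS beyond it and DPP3 on the other side. The table does not name the actinin rows, and they were looked at after the other values were known. The second row had between 1.12 and 1.25 times the count of the first in each library. The sequences of the 2 rows were not compared, so whether reads could be assigned to one of them is not known. The summed level of the 2 rows was 8441, 7631 and 7370 CPM in Yorkshire replicates 1 to 3, while Wei replicates 1 to 3 had 6023, 10031 and 8910. The Wei libraries spanned the Yorkshire libraries. The ratio of this sum to ACTN2 per length was 1.98 in Wei replicate 1 and between 3.11 and 4.03 in the other 5 libraries, and its log2 count ratio differed between breeds by -0.23 ± 0.32 (exact permutation p = 0.7, and 0.7 adjusted over the 6 pairs).

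**Figure D3:**
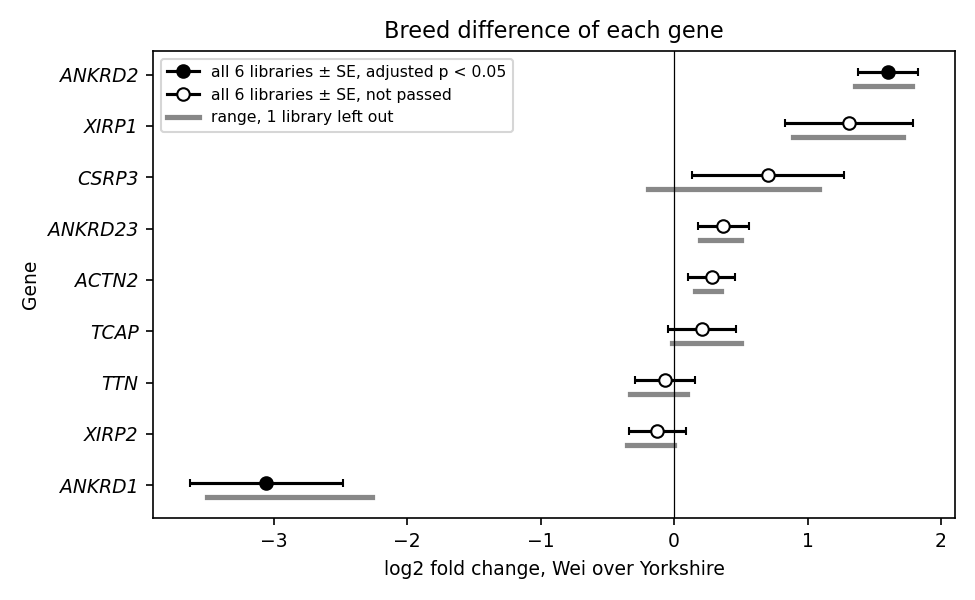
Log2 fold change of each gene, Wei over Yorkshire. Points with bars are the estimate from all 6 libraries ± SE, filled where the adjusted p was under 0.05, and grey lines give the range when 1 library is left out. ANKRD1 ranges from -3.50 to -2.27 and ANKRD2 from 1.36 to 1.79, whereas the ranges of CSRP3, TCAP, XIRP2 and TTN cross 0.

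The order of mean levels per length differed between breeds mainly through ANKRD1. In Yorkshire the mean FPKM was 1306 for ANKRD23, 1079 for TCAP, 725 for ACTN2, 328 for ANKRD1, 232 for XIRP2, 192 for CSRP3, 54.1 for ANKRD2, 48.9 for XIRP1 and 47.7 for the TTN row. In that order ACTN2 was clear of ANKRD1 and CSRP3 clear of ANKRD2, and all other neighbours overlapped between libraries. In Wei the mean FPKM was 1679 for ANKRD23, 1260 for TCAP, 880 for ACTN2, 326 for CSRP3, 214 for XIRP2, 164 for ANKRD2, 126 for XIRP1, 44.8 for the TTN row and 41.4 for ANKRD1. There TCAP was clear of ACTN2 and ACTN2 of CSRP3, and the remaining neighbours overlapped. By these means ANKRD1 was next after ACTN2 in Yorkshire and last in Wei, but not in each library. Its Yorkshire mean rested on replicate 1, at 582 FPKM. In Yorkshire replicates 2 and 3 ANKRD1 stood at 198 and 204 FPKM, below XIRP2 at 239 and 222. In Wei replicate 1 it stood at 68.1 FPKM, above the TTN row at 42.4.

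Several of these genes are known to depend on fibre type, and fibre gene levels moved between libraries. The 7 tested slow fibre genes summed to 16984, 9699 and 16242 CPM in Wei replicates 1 to 3 and to between 10647 and 11743 in Yorkshire. Wei replicates 1 and 3, the libraries with the higher sums, also had the higher levels of ANKRD2 and CSRP3 within Wei. For both genes the other libraries did not follow this order. Wei replicate 2 had the lowest slow fibre sum of all libraries, with ANKRD2 at 121 CPM, above the highest Yorkshire level of 62.8. Within Yorkshire, replicate 1 had the highest sum, 11743, and the lowest ANKRD2, 45.1 CPM. Yorkshire replicate 2 had the lowest sum of that breed, 10647, and its highest CSRP3, 256 CPM. The 7 tested fast fibre genes summed to 69378 CPM in Wei replicate 1, the library with the highest CSRP3 and XIRP1, and the other 5 libraries ranged from 90545 to 122626. Neither list held a gene called by edgeR, with 2 slow and 0 fast genes at an unadjusted p under 0.05, against 23.3% of all genes tested. DESeq2 and limma voom called 0 in both. All 7 slow genes had a positive change, with a median log2 fold change of 0.29. Of the 7 fast genes, 5 had a negative and 2 a positive change, with a median of -0.17. The log2 fold change was 0.48 ± 0.24 for MYH7, the myosin heavy chain of slow fibres, and 0.085 ± 0.260 for its light chain MYL2. The part of fibre type in the values of ANKRD2, CSRP3 and XIRP1 was not tested, and in bulk muscle fewer cells of a type and less RNA per cell cannot be told apart.

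ANKRD1 is also expressed in vessels and other stromal cells in some settings, so markers of those cells are given beside it. Of 8 smooth muscle and pericyte genes tested, 0 were called by edgeR, 1 by DESeq2 and 0 by limma voom, and 4 had an unadjusted p under 0.05, against 23.3% of all genes tested. Those 4 were lower in Wei, with log2 fold changes of -0.75 for CNN1, -0.56 for RGS5, -0.55 for PDGFRB and -0.66 for NOTCH3. Of the 8 changes, 5 were negative and 3 positive. The 8 genes summed to between 264 and 347 CPM in Yorkshire and between 188 and 439 in Wei. The highest sum was that of Wei replicate 3, where ACTA2 alone stood at 174 CPM. The 7 endothelial genes tested summed to between 192 and 224 CPM in Yorkshire and between 154 and 214 in Wei, with 0 called by edgeR, DESeq2 or limma voom and 1 at an unadjusted p under 0.05. Of 7 fibroblast genes tested, DPT, a matrix protein gene, was called lower in Wei (-1.29 ± 0.21), against 2.35% of all genes tested. All 7 had a negative change, and 2 of them an unadjusted edgeR p under 0.05, against 23.3% of all genes. DESeq2 and the replicate block each called 2 fibroblast genes, and limma voom 1, while edgeR called 2 with Wei replicate 2 left out. Over all genes tested, DESeq2 called 9.77% and limma voom 4.88%. The 7 genes summed to between 409 and 610 CPM in Yorkshire and between 273 and 497 in Wei. DPT no longer passed in the fits without Wei replicate 1, Wei replicate 3 or Yorkshire replicate 2. The part of these cells in the ANKRD1 difference was not tested.

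Genes around the 9 were described through 6 lists, chosen with earlier results of these data known. Over all genes tested, edgeR called 2.73% higher and 2.35% lower in Wei, and 23.3% had an unadjusted p under 0.05. In the list of titin partners, 2 of 19 tested genes were higher and 1 lower in Wei, with a median log2 fold change of 0.31. An unadjusted edgeR p under 0.05 was found for 11 of the 19. SQSTM1, an autophagy receptor that binds the titin kinase region through NBR1, was higher (1.51 ± 0.21; edgeR adjusted p = 0.0119). SMYD2, a lysine methyltransferase that associates with titin's N2A region, was higher at 134, 101 and 146 CPM in Wei replicates 1 to 3 against 64.8, 55.5 and 49.8 in Yorkshire (1.16 ± 0.17; edgeR adjusted p = 0.0140). OBSL1, a relative of obscurin, was lower (-0.52 ± 0.12; edgeR adjusted p = 0.0468). SQSTM1 missed the threshold without Yorkshire replicate 2, SMYD2 without Yorkshire replicate 2 or 3, and OBSL1 without any 1 of the 6 libraries. OBSL1 also missed it with the replicate block, library size alone or no count filter, each of which called 2 titin partners. MYPN, which anchors the ankyrin repeat proteins, had 0.38 ± 0.15 and CAPN3, the calpain held on titin, 0.33 ± 0.14, and neither passed; both were named after their values were seen.

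In the Z-disc scaffold list, 1 of 23 tested genes was higher and 1 lower, against 2.73% and 2.35% of all genes tested. An unadjusted edgeR p under 0.05 was found for 6 of the 23, against 23.3% of all genes. PDLIM3, an actinin-binding PDZ and LIM protein, stood at 3032, 2021 and 2229 CPM in Yorkshire replicates 1 to 3 and at 5727, 7750 and 3643 in Wei replicates 1 to 3 (1.23 ± 0.29; edgeR adjusted p = 0.0486). CAPZA1, a subunit of the actin capping protein, was lower (-0.64 ± 0.15; edgeR adjusted p = 0.0486). CAPZA1 missed the threshold without any 1 of the libraries, and PDLIM3 passed in 1 of those 6 fits, the one without Wei replicate 3. With the replicate number as a block PDLIM3 and CAPZA1 both missed it, and CAPZA1 also with library size alone, no count filter or limma voom.

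In the YAP and TEAD list, which covers the pathway of which ANKRD1 is a known target, 2 of 22 tested genes were higher and 0 lower, with a median of 0.010. Of all genes tested, 2.73% were called higher and 2.35% lower. An unadjusted edgeR p under 0.05 was found for 6 of the 22, against 23.3% of all genes. VGLL2, a muscle cofactor of TEAD, was higher (1.26 ± 0.24; edgeR adjusted p = 0.0301), as was AMOTL1, a YAP-binding scaffold (0.62 ± 0.13; edgeR adjusted p = 0.0361). VGLL2 missed the threshold without Yorkshire replicate 2 or 3 or Wei replicate 1 or 3, and AMOTL1 passed in 1 of the 6 fits, the one without Wei replicate 3. AMOTL1 also missed it with the replicate block or library size alone. The other common target genes CCN1 and CCN2, named after their values were seen, did not pass (0.31 ± 0.68 and -0.21 ± 0.59). CCN1 stood at 73.0 CPM in Yorkshire replicate 1, which also had the highest ANKRD1, and at 8.68 and 15.4 in the other Yorkshire libraries. CCN2 showed the same order, with 91.5 CPM against 17.3 and 19.5. In Wei replicates 1 to 3 CCN1 stood at 38.4, 55.8 and 26.5 CPM and CCN2 at 25.8, 40.9 and 44.8. For CCN1 and CCN2 each Wei library was above Yorkshire replicates 2 and 3 and below Yorkshire replicate 1. For ANKRD1 each Wei library was below each Yorkshire library. The part of this pathway in the ANKRD1 difference was not tested.

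The SRF and MRTF list, which covers factors that read the actin state, had 0 of 14 tested genes called by edgeR. At an unadjusted edgeR p under 0.05 stood 5 of them, against 23.3% of all genes tested. DESeq2 called 2 and limma voom 1, against 9.77% and 4.88% of all genes tested. CFL2, the muscle cofilin, had a log2 fold change of 0.032 ± 0.158, and VCL, the costameric protein vinculin, 0.39 ± 0.14. ACTC1, the cardiac actin kept at low level in adult skeletal muscle, was named after its values were seen. It stood at 34.9, 38.8 and 34.8 CPM in Yorkshire replicates 1 to 3 and at 1.89, 5.59 and 15.3 in Wei replicates 1 to 3, without overlap, and missed the threshold (-2.23 ± 0.57; edgeR adjusted p = 0.0612). In the list of relatives and thin filament genes 0 of 10 were called by edgeR, 2 had an unadjusted p under 0.05, DESeq2 called 2 and limma voom 0. TMOD4, which caps thin filaments, stood at 0.038 ± 0.182 and LMOD3, which nucleates them, at 0.12 ± 0.20.

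In the list of regeneration and developmental muscle genes, 2 of 11 tested genes were lower in Wei and 0 higher, against 2.35% and 2.73% of all genes tested. An unadjusted edgeR p under 0.05 was found for 2 of the 11, against 23.3% of all genes. CHRNG, the fetal acetylcholine receptor subunit, had 54, 37 and 46 counts in Yorkshire replicates 1 to 3, while Wei replicates 1 to 3 had 3, 0 and 1 (edgeR adjusted p = 0.0102). MYMK, the myoblast fusion gene listed in the table under its older symbol TMEM8C, had 79, 47 and 72 counts in Yorkshire and 11, 5 and 20 in Wei (-2.05 ± 0.37; edgeR adjusted p = 0.0268). Both are low genes beside ANKRD1, and the breeds did not overlap for either. CHRNG missed the threshold without Yorkshire replicate 2, and MYMK without any 1 of the Yorkshire libraries or Wei replicate 1. The other genes of that list, among them MYOG and MYH3, did not pass.

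**Figure D4:**
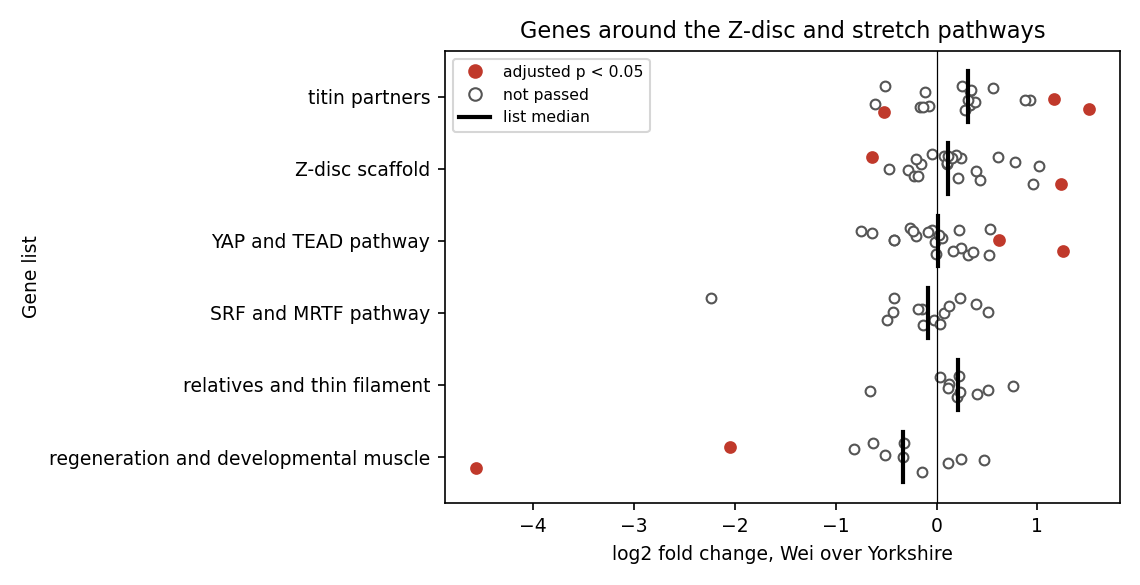
Log2 fold change, Wei over Yorkshire, of each tested gene in the 6 lists, with filled points where edgeR's adjusted p was under 0.05 and a vertical bar at the list median. The medians run from -0.34 for regeneration and developmental genes to 0.31 for titin partners, beside -0.023 over all genes tested.

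By the pattern over the 6 libraries, the genes most like ANKRD1 among 7801 named genes included ABTB2, G6PC3, PRADC1 and YIF1B, with a likeness, as Pearson's r of log2 CPM, between 0.978 and 0.989. The likeness reads the shape and not the size: their log2 fold changes lay between -0.83 and -0.30, and none of these 4 passed edgeR's test. With 6 libraries in 2 separate groups, 40 genes had a likeness above 0.95, so the order among them is a description only.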

How the data were processed

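RNA from longissimus dorsi muscle was sequenced in 6 libraries, 3 per breed. Per the labels' protocols, TRIZOL extraction was followed by an Illumina TruSeq library kit. Tools named in the submitters' processing notes are CASAVA 1.7, TopHat2 2.0.9 and edgeR, with the build Sscrofa10.2. How reads were counted, with which annotation and strand setting, is not given in the sources used here. Per the file headers, the authors deposited raw counts and FPKM values for every gene. Each FPKM of the genes described equalled the count divided by total gene counts and by 1 gene length, which gave the lengths printed. No sequences are shown.

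The test was the quasi-likelihood F test of edgeR 4.0.16 in R 4.3.3, with breed as the only term, TMM factors, a filterByExpr minimum count of 10 and Benjamini-Hochberg adjustment at a threshold of 0.05. An SE was taken as the unshrunk log2 fold change, without sign, divided by the square root of F. On simulated counts for these 13209 genes with 200 changed, 52% of 2-fold and 99% of 4-fold changes were recovered. All genes were drawn with the same dispersion, a biological coefficient of variation of 21.8%. Within a breed, the SD of CPM over its mean ran from 5.18% (ANKRD23 in Wei) to 81.6% (CSRP3 in Wei) among the 9 genes. The recovery rates therefore do not hold for genes that spread more than the drawn ones. Libraries of a breed differed by more than sampling noise (lowest chi-square per degree of freedom 24.5), so none was counted as a copy. With 3 libraries per breed, the spread between libraries and not counting error limits precision for the 9 genes, whose lowest count was 648. For genes with few counts, such as CHRNG and MYMK, counting error matters as well.

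Genes and lists were chosen with earlier results of these data known. Named were the 9 genes, of each list up to 3 called genes or else the 2 most abundant, and the 5 genes most like ANKRD1; some genes that this rule names are not reported here. Of the rows, 9160 had no symbol, and for 1774 of these the list search used the symbol that a gene name table pairs with the ID. Alternatives were RLE factors, library size alone, no count filter, 1 CPM in at least 3 libraries, DESeq2 1.42.0, limma voom 3.58.1, the replicate block, leaving out mitochondrial genes and ACTA1, and leaving out each library. The unnamed actinin rows were added after seeing the data. Figures were drawn with matplotlib 3.10.9.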

Additional observations from a re-analysis of the deposited data

How the results depend on the processing

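ANKRD1 and ANKRD2 passed under each of the 8 alternatives that kept all libraries, and the other 7 genes under none of them. Leaving out 1 library left 0 to 2 of the 9 genes called, and 60 to 394 of all genes in place of 671, with fewer samples in each fit. DESeq2 called 1291 genes; the cause was not tested. The median over all genes shifted by 0.020 at most under any alternative.

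Leaving out 1 library turned the sign of changes that had not passed. The log2 fold change ranged from -0.19 to 1.08 for CSRP3, -0.013 to 0.50 for TCAP, -0.35 to 0.0031 for XIRP2 and -0.33 to 0.098 for the TTN row. For the unnamed actinin rows it ranged from -0.11 to 0.25 and from -0.014 to 0.32. The difference in log2 ratio ranged from -0.27 to 0.67 for CSRP3 to TCAP and from -0.40 to 0.071 for the actinin sum to ACTN2. The other 4 pairs kept their sign in each such value, and the ratio of FPKM values kept it for all 6.

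In the lists, 3 titin partners, 2 Z-disc scaffold, 2 YAP and TEAD, 0 SRF and MRTF, 0 relatives and 2 regeneration genes were called. DESeq2 called 5 of 19 titin partners, 5 of 23 Z-disc, 2 of 14 SRF and MRTF genes and 2 of 10 relatives, against 9.77% of all genes tested. Library size alone called 1 Z-disc, 1 YAP and TEAD and 1 SRF and MRTF gene, limma voom 1 Z-disc and 1 SRF and MRTF gene, and no count filter 1 SRF and MRTF gene and 1 relative. Leaving out 1 library gave 0 to 2 titin partners, 0 to 1 Z-disc, 0 to 1 YAP and TEAD, 0 to 1 SRF and MRTF and 0 to 2 regeneration genes.

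With the replicate block 477 genes and 2 of the 9 were called, with 1 Z-disc, 2 titin partner, 1 YAP and TEAD and 1 relative among the lists. Across genes, deviations from the breed means correlated at 0.14, -0.0066 and 0.022 between libraries of one number, and 2 of 6 libraries correlated best with their own number. A pairing by replicate number was thus not seen across genes, but these values cannot exclude one. With the block the SE fell from 0.57 to 0.25 for ANKRD1 and from 0.48 to 0.25 for XIRP1. It rose from 0.23 to 0.25 for ANKRD2 and from 0.19 to 0.20 for ANKRD23.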
